A study of Rattus norvegicus with 22 samples.

Results

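A set of 6 genes of phagocytes and their relatives was followed in rat cortex after a penetrating ballistic brain injury (PBBI): the scavenger receptor Msr1 (ENSRNOG00000012779), the Fc receptor Fcgr1a (ENSRNOG00000021199), the galectin Lgals3 (ENSRNOG00000010645), the sialic acid-binding receptors Siglec5 (ENSRNOG00000021474) and Siglech (ENSRNOG00000021499), and the RNA editing enzyme Apobec1 (ENSRNOG00000015411). They are 6 of the 32545 gene identifiers counted, of which 23572 had counts, and their symbols came from the study's supplementary lists of genes. They were chosen by name with the difference between ipsilateral PBBI and sham samples known, so ipsilateral values are given as a description, with no test. The contralateral samples did not enter that choice, and the members were tested there. They come from the same rats, whose hemispheres correlated at 0.246 to 0.758 after subtraction of group means. The contralateral tests are therefore not independent of the choice.

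The RNA came from adult male Sprague-Daley rats (labels' spelling) weighing 275 to 320 g, each implanted with EEG and EMG electrodes before surgery. In the PBBI group (n = 6 rats) a probe with an inflatable balloon was driven into the right frontal cortex through a craniectomy. Sham rats (n = 5) had the same procedures with no probe inserted, so the controls also carry the implants and the craniectomy. Cortical tissue of the ipsilateral and contralateral hemispheres was taken 24 h later, with 1 library per hemisphere and rat, 22 in all. The tissue was not sorted, so more RNA per cell and more cells of a type cannot be told apart.

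Total counts per library were between 42085341 and 63412426. The ipsilateral library of PBBI rat 85 stood apart: its mean correlation with the other ipsilateral PBBI libraries was 0.835, against 0.933 to 0.943 for the others, and its TMM factor (the normalization for composition) was 0.729, against 0.900 to 1.21 in the other 21 libraries. Ratios of mean CPM that include it are given with and without it. No marker of neurons, oligodendrocytes or endothelium could be paired with an identifier, so the labelled tissue was checked only on glia and leukocytes.

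Macrophages and microglia, the phagocytes of the brain, take up debris and coated particles through surface receptors. Scavenger receptors bind modified lipoproteins and other polyanions, Fc receptors bind the constant part of antibodies, and galectins and Siglecs are lectins that bind galactose-containing and sialylated glycans. Many Siglecs carry an inhibitory motif in the cytoplasmic tail, while Siglec-H, known from plasmacytoid dendritic cells and microglia, signals through the adaptor encoded by Tyrobp. APOBEC1 deaminates cytidine in RNA and is best known for editing the apolipoprotein B transcript.

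Promoters are shown to set the lowered member, Siglec5, beside raised ones. RefSeq windows of the build GRCr8, which is not the build of the counts, were found for 3 of the 6 members: Siglec5, Siglech and Apobec1. The 250 bases before each RefSeq start are printed below 5′ to 3′ on the gene's strand, at chr1:102904656-102904905 on the plus strand (Siglec5), chr1:115729241-115729490 on the plus strand (Siglech) and chr4:157487602-157487851 on the minus strand (Apobec1). Capitals mark GAGGAA or GGAAGT, letters within sites bound by PU.1 and other ETS factors of myeloid cells, or their reverse complements TTCCTC and ACTTCC.
Siglec5: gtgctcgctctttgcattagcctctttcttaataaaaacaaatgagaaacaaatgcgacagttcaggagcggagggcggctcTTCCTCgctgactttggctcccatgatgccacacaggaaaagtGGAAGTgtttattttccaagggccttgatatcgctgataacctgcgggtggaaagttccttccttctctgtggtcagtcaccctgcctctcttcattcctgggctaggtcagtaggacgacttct
Siglech: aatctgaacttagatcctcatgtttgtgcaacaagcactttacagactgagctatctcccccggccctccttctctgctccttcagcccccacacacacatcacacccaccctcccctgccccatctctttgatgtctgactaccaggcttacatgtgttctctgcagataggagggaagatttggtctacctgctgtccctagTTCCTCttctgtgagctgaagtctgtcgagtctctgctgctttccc
Apobec1: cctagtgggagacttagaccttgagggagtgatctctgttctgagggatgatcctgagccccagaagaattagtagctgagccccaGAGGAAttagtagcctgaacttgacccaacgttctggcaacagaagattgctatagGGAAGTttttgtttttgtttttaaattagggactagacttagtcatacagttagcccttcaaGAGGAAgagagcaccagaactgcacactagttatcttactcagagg
Siglec5 held TTCCTC beginning 168 bases and GGAAGT beginning 125 bases before the start. Siglech held TTCCTC beginning 46 bases before it. Apobec1 held GAGGAA beginning 164 and 46 bases and GGAAGT beginning 108 bases before it. Over all 33469 windows of this length, 23.3% held GAGGAA and 19.2% held GGAAGT on either strand, so the lowered and the raised gene both carry letters that are common in promoters.

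In the ipsilateral cortex, 4 members lay higher in all 6 PBBI rats than in any sham rat (Msr1, Lgals3, Fcgr1a and Apobec1), Siglec5 lay lower in all 6, and Siglech had few counts after injury and almost none in sham. Groups that did not overlap in the same way were seen in 3.4% (higher) and 1.24% (lower) of the 16104 genes in that comparison. Because the members were chosen on it, nothing is read from these shares. Levels are CPM, counts scaled to library size with TMM normalization over the 22 libraries, and log2 fold changes are of PBBI over sham, fitted with edgeR.

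Msr1 encodes the class A scavenger receptor of macrophages. In ipsilateral sham cortex it had 1.19, 1.03, 0.889, 0.909 and 0.577 CPM in rats 82, 84, 86, 91 and 94. In ipsilateral PBBI cortex it had 51.1, 17.0, 4.62, 27.0, 33.2 and 46.0 CPM in rats 81, 83, 85, 88, 90 and 96. The lowest PBBI rat was rat 85, at 3.89 times the highest sham rat. The means were 29.8 CPM ± 17.5 (SD, n = 6) and 0.918 ± 0.225 (SD, n = 5), a ratio of 32.5, or 38.0 without rat 85. The log2 fold change was 5.02 (standard error 0.567).

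Fcgr1a encodes the high-affinity receptor for IgG. Sham rats had 5.96, 9.63, 7.66, 3.19 and 8.20 CPM ipsilaterally, in the same order. PBBI rats had 47.2, 19.5, 32.5, 25.0, 19.4 and 37.1 CPM. Here rat 85 came next after rats 81 and 96, and the lowest PBBI rat, rat 90, was 2.01 times the highest sham rat. The means were 30.1 CPM ± 11.0 (SD, n = 6) and 6.93 ± 2.47 (SD, n = 5), a ratio of 4.35, or 4.28 without rat 85, and the log2 fold change was 2.12 (standard error 0.343).

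Lgals3 encodes galectin-3, a lectin that macrophages secrete and also keep in the cytoplasm. Sham rats had 4.81, 14.2, 7.24, 3.06 and 10.4 CPM ipsilaterally. PBBI rats had 258.0, 71.6, 84.8, 172.1, 99.0 and 279.1 CPM. The lowest PBBI rat, rat 83, was 5.02 times the highest sham rat, the widest gap among the members. The means were 160.8 CPM ± 90.7 (SD, n = 6) and 7.96 ± 4.47 (SD, n = 5), a ratio of 20.2, or 22.1 without rat 85, and the log2 fold change was 4.34 (standard error 0.536).

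Apobec1 had 0.984, 3.94, 1.70, 0.781 and 2.09 CPM in the ipsilateral sham rats. It had 12.8, 6.48, 6.41, 9.61, 6.30 and 11.5 CPM in the PBBI rats. The groups lay apart by a factor of 1.60. The means were 8.86 CPM ± 2.89 (SD, n = 6) and 1.90 ± 1.26 (SD, n = 5), a ratio of 4.66, or 4.92 without rat 85, and the log2 fold change was 2.22 (standard error 0.434).

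Siglec5, the lowered member, had 5.75, 10.8, 7.81, 7.14 and 5.61 CPM in the ipsilateral sham rats. PBBI rats had 1.25, 3.16, 1.31, 3.50, 2.35 and 0.894 CPM. The highest PBBI rat, rat 88, lay below the lowest sham rat by a factor of 1.60. The means were 2.08 CPM ± 1.09 (SD, n = 6) and 7.42 ± 2.11 (SD, n = 5), a ratio of 0.280, or 0.300 without rat 85. The log2 fold change of Siglec5 was -1.84 (standard error 0.382), while the 4 raised members in the fit had log2 fold changes of 2.12 to 5.02.

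Siglech was at the edge of detection. Its raw counts in ipsilateral PBBI cortex were 23, 3, 7, 1, 10 and 21 in rats 81, 83, 85, 88, 90 and 96, and in sham cortex 2 in rat 84 and 0 in the other 4 rats. The PBBI rats overlapped the sham rats only through rat 88. Summed, 65 counts stood against 2, a ratio of 24.9 per total count, and rats 81 and 96 gave 23 and 21 of the 65. The ratio of mean CPM was 21.9, or 22.2 without rat 85. The gene did not pass edgeR's filter on low counts, and 4 of 6 PBBI rats and 0 of 5 sham rats lay above a floor of 3 counts.

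**Figure D1:**
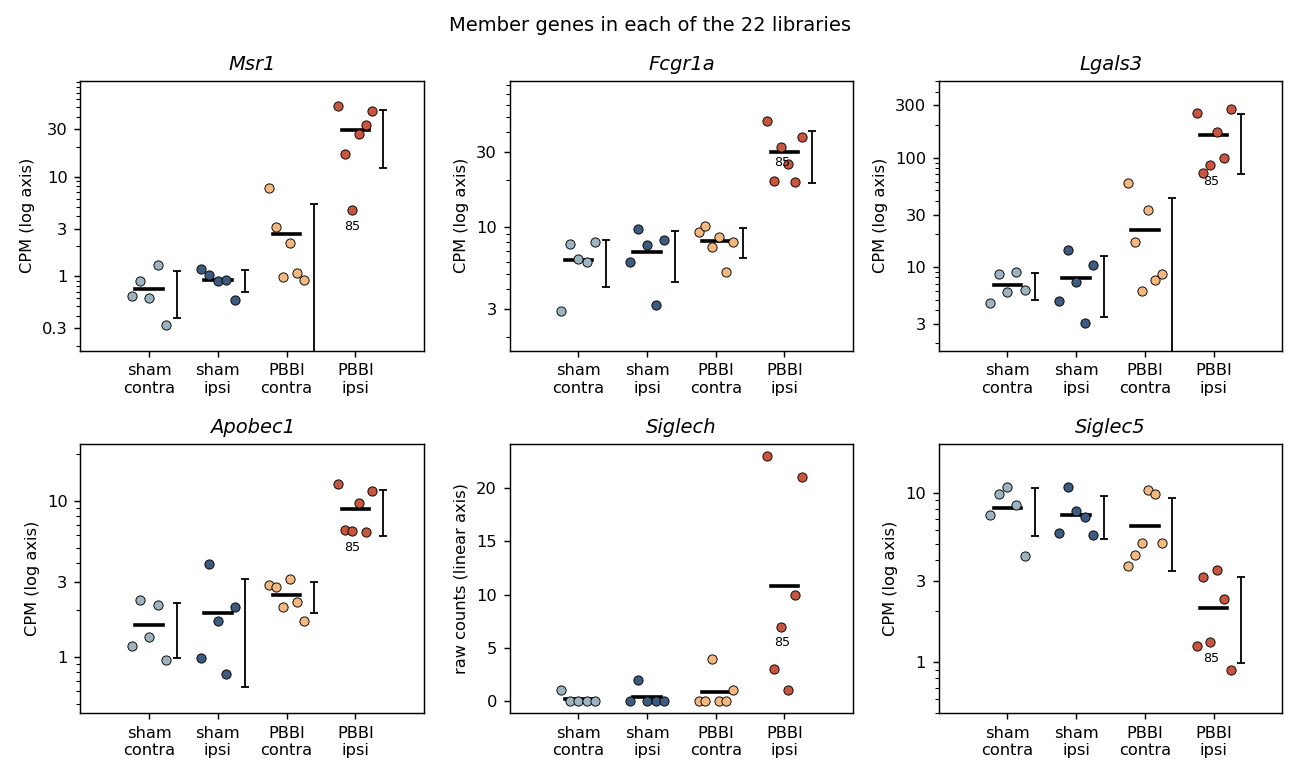
Level of each member in each of the 22 libraries, by group (CPM on a log axis, and raw counts on a linear axis for Siglech). Points are rats, horizontal lines are group means, whiskers are ± 1 SD of the CPM (some run below the axis), and 85 marks the ipsilateral library of PBBI rat 85. Msr1, Fcgr1a, Lgals3 and Apobec1 lay above and Siglec5 below every ipsilateral sham rat in all 6 ipsilateral PBBI rats.

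Levels of different genes can be compared only per length, as RPKM, which is CPM per kilobase on the gene lengths in the deposited table. In ipsilateral sham cortex the order was Lgals3 at 7.33 ± 4.12 RPKM (SD, n = 5), Fcgr1a at 4.59 ± 1.63, Siglec5 at 2.74 ± 0.779, Apobec1 at 1.49 ± 0.988, Msr1 at 0.156 ± 0.0382 and Siglech at 0.00359. Lgals3 and Fcgr1a, Fcgr1a and Siglec5, and Siglec5 and Apobec1 were neighbours whose ranges of 1 SD overlapped. After injury the order was Lgals3 at 148.0 ± 83.5 RPKM (SD, n = 6), Fcgr1a at 19.9 ± 7.25, Apobec1 at 6.96 ± 2.27, Msr1 at 5.07 ± 2.98, Siglec5 at 0.768 ± 0.403 and Siglech at 0.0786 ± 0.0631. Apobec1 and Msr1 did not differ beyond their spread there. Siglec5 went from above Apobec1 to below Msr1.

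The ipsilateral PBBI rats differed widely. Rats 81 and 96 held the 2 highest levels of all 5 raised members, and the 2 lowest levels of Siglec5. The other rats came in a different order from gene to gene: rat 85 was the lowest for Msr1 and came next after rats 81 and 96 for Fcgr1a, and rat 90 came next after them for Msr1 and was the lowest for Fcgr1a and Apobec1. Relative to the sham mean, Msr1 was 55.6-fold in rat 81 and 5.03-fold in rat 85. Lgals3 was 35.1-fold in rat 96 and 8.99-fold in rat 83. Fcgr1a had a narrower range, from 2.80-fold in rat 90 to 6.81-fold in rat 81.

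The adaptors of these receptors were read in the same rats. Tyrobp, which encodes the adaptor DAP12, had 62.8 to 144.6 CPM in 5 of the PBBI rats and 425.0 CPM in rat 85, which is 8.25 times the sham mean. Fcer1g, which encodes the signalling chain shared by Fcgr1a and other Fc receptors, had its lowest PBBI level, 22.3 CPM, in the same library, and 48.9 to 88.7 CPM in the others. Rat 85 was thus the highest PBBI rat for the adaptor of Siglech and the lowest for that of Fcgr1a. The part of that library's unusual composition in these values was not tested. Tmem119, a microglial membrane protein, was below the sham mean in all 6 PBBI rats, from 0.328 times that mean in rat 81 to 0.879 times in rat 83. Its groups overlapped, with rat 83 at 27.8 CPM and the lowest sham rat at 26.5 CPM. The other paired microglial markers, C1qb and C1qc, went the other way, with ipsilateral log2 fold changes of 1.32 and 1.51.

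**Figure D2:**
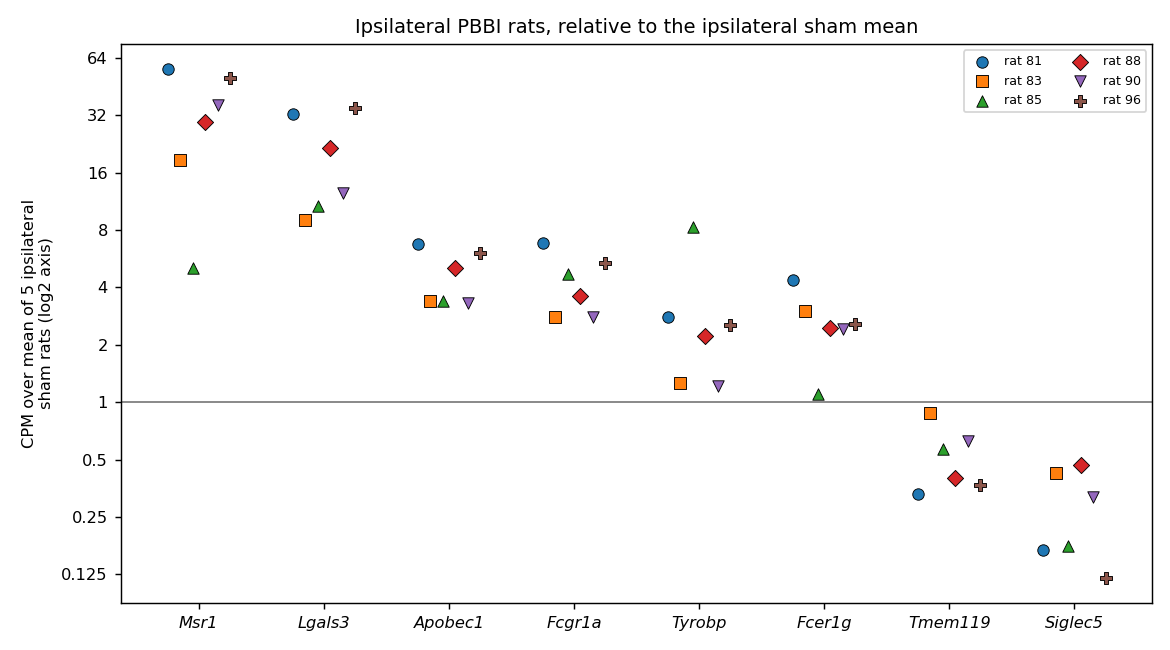
CPM of each ipsilateral PBBI rat divided by the mean of the 5 ipsilateral sham rats (log2 axis, 1 symbol per rat), for 5 members, the adaptors Tyrobp and Fcer1g, and Tmem119. The microglial markers C1qb and C1qc, not shown, were higher in PBBI. Rats 81 and 96 are highest for Msr1, Lgals3, Apobec1 and Fcgr1a and lowest for Siglec5, and rat 85 is lowest for Msr1 and Fcer1g and highest for Tyrobp.

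Each rat also gave its own comparison of hemispheres. This comparison shares the ipsilateral samples on which the members were chosen, so it too is a description. In PBBI rats the ipsilateral minus contralateral difference in log2 CPM averaged 3.59 ± 1.399 for Msr1, 3.19 ± 1.18 for Lgals3, 1.85 ± 0.521 for Fcgr1a and 1.79 ± 0.557 for Apobec1 (SD, n = 6), higher on the injured side in 6 of 6 rats for each. For Siglec5 it averaged -1.66 ± 0.685, lower on the injured side in 6 of 6 rats, with the smallest difference in rat 83 (-0.44). Siglech had 65 counts ipsilaterally and 5 contralaterally in these rats.

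In sham rats the same differences of these 5 members averaged between -0.10 (Siglec5) and 0.38 (Msr1), less than their SD over the 5 rats, which was 0.367 to 0.994. In sham rat 91 the ipsilateral minus contralateral difference was -0.50 for Msr1, -0.90 for Fcgr1a, -1.55 for Lgals3 and -1.43 for Apobec1, so a hemispheric difference of that size arose without the probe. No other sham rat was below 0 for Msr1, Fcgr1a or Lgals3, while sham rat 82 was for Apobec1 (-0.25). For Msr1, Lgals3 and Apobec1 the lowest PBBI differences were 2.21, 2.08 and 1.19, above the highest sham ones of 0.87, 0.78 and 1.10. The share of all genes with such a gap was not computed. Nothing is read from it, since the ipsilateral samples served to choose the members. For Fcgr1a, PBBI rat 83 (0.95) lay within the sham range, whose highest value was 1.02, and for Siglec5 the same rat lay just above the lowest sham value of -0.46. The sham values of 1.02 for Fcgr1a and 0.87 for Msr1 were both those of rat 82. Its contralateral library has PFC in its title and its ipsilateral library has CI. The next sham value for Fcgr1a was 0.30 (rat 84). The part of these titles in the differences was not tested.

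**Figure D3:**
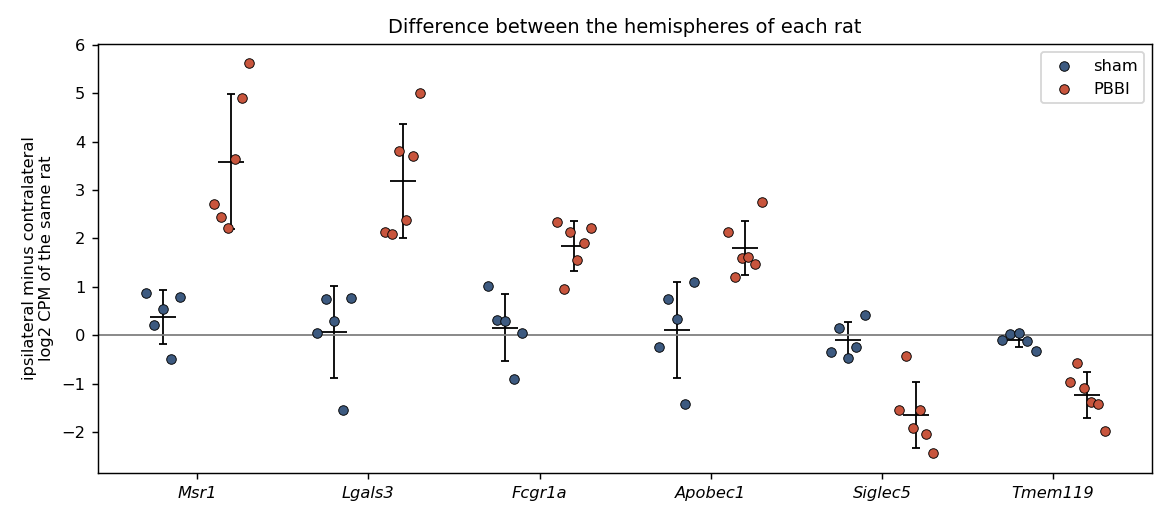
Ipsilateral minus contralateral log2 CPM of the same rat for 5 members and Tmem119 (points are rats, dashes and whiskers are mean ± SD, n = 5 sham and 6 PBBI). PBBI differences are above 0 in 6 of 6 rats for the raised members and below 0 in 6 of 6 for Siglec5 and Tmem119, while sham differences lie on both sides of 0. The microglial markers C1qb and C1qc, not shown, had higher ipsilateral levels in PBBI than in sham.

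The contralateral hemisphere asks whether the members also differed away from the probe. Its libraries come from the same rats as the ipsilateral ones, so its p-values are not independent of how the members were chosen. None of them passed adjustment over all genes, but Msr1, Lgals3 and Apobec1 were higher on average and had an unadjusted p under 0.05. A higher level with such a p was seen in 1.28% of the 15907 genes tested (2.3% in either direction), and 0% had an adjusted p of 0.05 or less. The members were taken from genes with a name. Of the 1586 named genes tested, 116 were higher with an unadjusted p under 0.05 in edgeR's test. No member's groups were apart contralaterally, against 0.0943% of genes that lay wholly higher.

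Msr1 had 0.633, 0.887, 0.602, 1.30 and 0.320 CPM in contralateral sham cortex (rats 82, 84, 86, 91 and 94). PBBI rats had 7.78, 3.09, 0.969, 2.14, 1.08 and 0.905 CPM, of which 3 of 6 lay above all sham rats. The log2 fold change was 1.83 (standard error 0.591, p = 0.00814 and adjusted p = 1.00 from the quasi-likelihood test of edgeR), and the exact permutation p (two-sided, over every split of the 11 rats) was 0.0390. The smallest p such a permutation test can give is 0.00216. Without rat 81, the highest, the log2 fold change was 1.12, a fold change lowered by more than 1.5 times.

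Lgals3 had 4.66, 8.51, 5.87, 9.04 and 6.07 CPM in the contralateral sham rats and 59.0, 16.9, 6.04, 33.0, 7.55 and 8.62 CPM in the PBBI rats. Rats 81, 83 and 88 lay above all sham rats, and the others lay among them. The log2 fold change was 1.68 (standard error 0.549, p = 0.00874 and adjusted p = 1.00 from edgeR), and the exact permutation p was 0.0866. Without rat 81 it was 1.07. Rat 96, highest for Lgals3 on the injured side, was inside the sham range on the other side.

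Apobec1 had 0.959 to 2.32 CPM in the contralateral sham rats and a median of 2.52 CPM (1.69 to 3.13) in the PBBI rats, 3 of 6 above all sham rats. Its log2 fold change was 0.64 (standard error 0.288, p = 0.0450 and adjusted p = 1.00 from edgeR), and the exact permutation p was 0.0368. Leaving out each rat in turn kept the edgeR p under 0.05 in 4 of 11 fits, against 11 of 11 for Msr1 and Lgals3.

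Fcgr1a had 2.92 to 7.97 CPM in sham and a median of 8.29 CPM (5.14 to 10.1) in PBBI rats contralaterally. The log2 fold change of 0.38 (standard error 0.265) had p = 0.178 from edgeR, adjusted p = 1.00, and an exact permutation p of 0.145. Its interval of 2 standard errors ran from -0.15 to 0.91, so a rise of the size of the ipsilateral 2.12 lay outside it. Siglec5 had 4.20 to 10.8 CPM in sham and a median of 5.03 CPM (3.70 to 10.3) in PBBI rats. The log2 fold change of -0.35 (standard error 0.317) had p = 0.290 from edgeR, adjusted p = 1.00, and an exact permutation p of 0.279. Its interval of 2 standard errors ran from -0.98 to 0.29 and did not reach the ipsilateral -1.84. Siglech had 5 contralateral counts in PBBI, 4 of them in rat 85, and 1 in sham. The ratio was 4.01 per total count (95% exact interval 0.449 to 189.6, which takes each count as independent). A difference was thus not detectable at this depth.

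**Figure D4:**
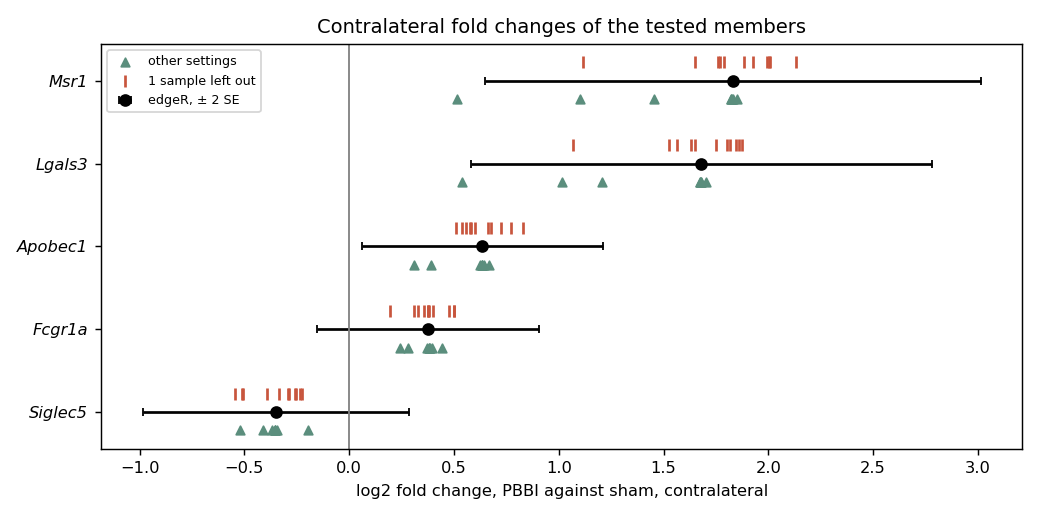
Contralateral log2 fold change of PBBI over sham for the 5 tested members (circles, edgeR, ± 2 standard errors), under 8 other settings (triangles) and with 1 sample left out (ticks). Msr1, Lgals3, Apobec1 and Fcgr1a stay above 0 and Siglec5 below 0 in every fit shown.

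Other genes of the same families were read from lists written from general knowledge. Of 94 genes, 38 could be paired with an identifier, and only through the study's lists of genes it called, so their ipsilateral directions are not independent of that choice. Without the members, 32 of 88 genes could be paired and all 32 were higher ipsilaterally, with a median log2 fold change of 2.26. Of all 16104 genes, 7779 were higher, with a median of -0.02. Of the 1684 genes with a name, 1240 were higher and 444 lower, with a median of 1.25. Siglec5 was the only paired list gene in the ipsilateral fit with a lower level after injury.

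Among 10 scavenger and pattern receptors, Cd14, the co-receptor for bacterial lipopolysaccharide, had an ipsilateral log2 fold change of 5.17, near that of Msr1. Olr1 and Cd36, receptors for oxidized lipoprotein, had 3.40 and 2.59, and Cd163, the haemoglobin scavenger receptor, had 1.29. Among 10 Fc receptors and adaptors, the inhibitory receptor Fcgr2b had 2.75 and the low-affinity receptor Fcgr3a 2.26, close to the 2.12 of Fcgr1a, while Fcer1g had 1.41. Fc receptors and Siglecs are families of related sequence, and how reads that align to several places were counted was not given in the sources used here.

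Lgals3 stood well above the other galectins that could be paired, Lgals1 at 1.55 and Lgals7 at 1.35. Among Siglecs, Siglec8 and Siglec10 had 3.16 and 2.72 (standard errors 0.845 and 0.850), opposite in sign to Siglec5. Both rest on few counts, with ipsilateral sham means of 0.117 and 0.194 CPM and lowest PBBI counts of 2 and 4. Their PBBI and sham groups overlapped. All 9 paired myeloid C-type lectins were higher, beside 1240 of the 1684 named genes. Examples were Clec4e, which binds mycobacterial glycolipid, at 4.57 and the beta-glucan receptor Clec7a at 3.26. Apobec3b, the other cytidine deaminase in the list, had 1.49.

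Contralaterally, 24 of the 29 tested list genes that are not members were higher and 5 lower, beside 1016 higher of the 1586 named genes and 7764 higher of all 15907 genes. Their median log2 fold change was 0.41, against 0.12 over the named genes and -0.01 over all genes. Of these 29, 3 had an unadjusted p under 0.05 in edgeR's test (Cd14, Fcgr3a and Clec4a3), all higher, and none passed adjustment. Of the named genes 116 of 1586 were higher with such a p, and of all genes 204 of 15907. Cd14 had a contralateral log2 fold change of 1.48, beside the 1.83 of Msr1 and the 1.68 of Lgals3. Siglec10 went the other way, at -0.97.

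**Figure D5:**
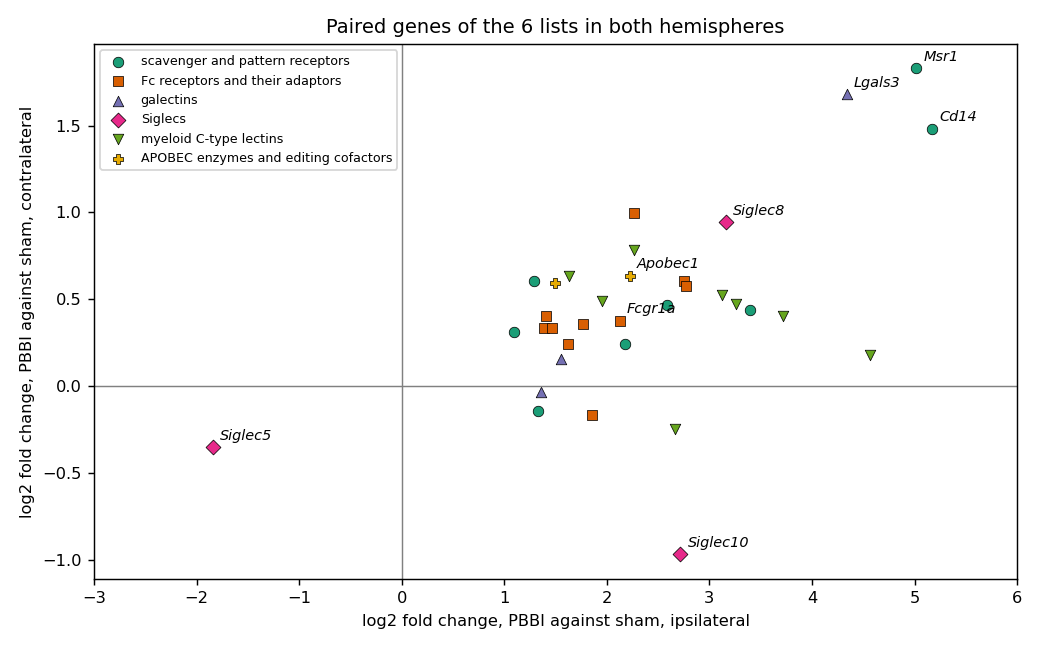
Log2 fold change of PBBI over sham in the ipsilateral (x axis) and contralateral (y axis) hemisphere for the 34 list genes fitted in both, with 1 symbol per list. Msr1, Lgals3 and Cd14 lie at the upper right, and Siglec5 is the only gene left of 0.

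Markers of several leukocytes were read beside the raised members. The 8 paired monocyte and macrophage markers summed to 109.2 to 244.6 CPM in ipsilateral sham and 388.6 to 2716 CPM in ipsilateral PBBI rats, and contralaterally to 131.8 to 176.8 and 141.1 to 354.2 CPM. Spp1 and Lyz2 had the highest ipsilateral PBBI means among them, 613.7 and 417.9 CPM, and Ccr2 the lowest, 0.145 CPM. The 7 in the ipsilateral fit had log2 fold changes of 1.29 to 5.17. The ipsilateral groups of Lyz2, Arg1 and Ccr2 overlapped. The 6 paired neutrophil markers summed to 9.71 to 54.2 and 20.1 to 245.0 CPM ipsilaterally, with Elane at 0 in all ipsilateral sham rats. The 5 paired dendritic cell markers summed to 6.85 to 8.70 and 7.97 to 19.7 CPM ipsilaterally, and to 6.82 to 8.56 in sham and 4.95 to 7.40 CPM in PBBI contralaterally. They did not go one way: of the 4 in the ipsilateral fit, Batf3, Clec9a and Runx2 had log2 fold changes of 2.65, 2.30 and 1.38, while Flt3 had 5.56 CPM ± 0.683 (SD, n = 5) in sham and 2.77 CPM ± 1.48 (SD, n = 6) in PBBI rats. The 3 lymphocyte markers summed to 0.167 to 1.53 and 2.34 to 8.58 CPM ipsilaterally.

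Markers of resident glia did not all go one way either. The 3 paired microglial markers other than Siglech (Tmem119, C1qb and C1qc) summed to 84.4 to 181.2 CPM in ipsilateral sham and 162.2 to 363.4 CPM in PBBI rats. Within that sum, C1qb and C1qc had ipsilateral log2 fold changes of 1.32 and 1.51 and Tmem119 had -0.92. Tmem119, like Siglec5, was lower on the injured side than on the other in 6 of 6 PBBI rats, by -1.24 ± 0.478 on the log2 scale. The 4 paired astrocyte markers summed to 450.9 to 1040 and 2152 to 7434 CPM ipsilaterally, and to 574.0 to 1315 and 628.3 to 4505 CPM contralaterally. Within that sum Gfap and Vim had ipsilateral log2 fold changes of 2.99 and 2.89, and Aldh1l1 and Gjb6 had -0.96 and -1.53. The part of any of these cell types in the members' levels was not tested.

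The named genes with the most similar levels were ranked by Pearson's r of log2 CPM over the 22 libraries, among 1715 genes. The 4 groups shape these values, so r after subtraction of each group's mean is given after it, and both hemispheres of a rat enter. Names came only from the study's lists of genes it called, so genes without a name were not ranked. Msr1 was most like Lcp1 (r = 0.964, then 0.836), an actin-bundling protein of leukocytes, followed by Il18rap and Ccna2. Fcgr1a was most like Glipr1 (0.967, then 0.856), followed by Ms4a6a and Lilrb4. Lgals3 was most like Vim (0.981, then 0.915), the intermediate filament vimentin, followed by Ms4a6a and Gpnmb.

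Apobec1 was most like the C-type lectin Clec12a (0.957, then 0.845), followed by Gpnmb and Dse. Siglec5 was most like Stau2 (0.899, then 0.718), an RNA-binding protein of neuronal dendrites, followed by Rgs7, a regulator of G protein signalling known from neurons, and Fam81a. Over the 22 libraries Siglec5 had r of -0.704 (Apobec1) to -0.841 (Fcgr1a) with the raised members. Their closest genes could thus not include these 3. Siglech was most like RGD1565355 (0.873, then 0.649), followed by Il1b and Ccl4, with few counts behind its values. Among members, after group means the highest r was that of Lgals3 and Apobec1 (0.760), followed by Msr1 and Lgals3 (0.677), while Msr1 and Fcgr1a had 0.173. Siglec5 had values between -0.488 and 0.136 with the other members.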

How the data were processed

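Per the labels and the study's methods, ribosomal RNA was depleted, stranded libraries were prepared, and the authors aligned reads with STAR 2.4.2a and counted them on Ensembl Rnor 6.0 genes with featureCounts 1.4.3-p1 (submitters' processing notes). The authors deposited raw counts, 1 column per library, and a gene length. Counts from 1 to 19 were even more often than odd (60.8% to 69.6% even per library). The cause was not tested. The exact interval of Siglech takes each count as independent and covers counting error only.

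Samples were grouped by injury, hemisphere and animal number in the labels. The members and lists were chosen with earlier results of these data known. Symbols of 1822 identifiers came from the study's supplementary tables of called genes. All 6 members, the paired genes of 6 lists, and the 3 most similar genes per member are named. Counts were fitted in R 4.3.3 with the quasi-likelihood test of edgeR 4.0.16 (TMM, filterByExpr, Benjamini-Hochberg adjustment over all genes, threshold 0.05), each hemisphere separately. Log2 CPM used a prior count of 2. Replicates are separate rats. Libraries of the same rat pair the hemispheres: their deviations from group means correlated at 0.246 to 0.758 in 11 rats. Alternatives were DESeq2 1.42.0 with and without a prior, limma 3.58.1 voom with and without weights, RLE size factors, other filters, all 22 samples in 1 fit, the rat as a block, and leaving out each sample. The tests were tested on simulated data. Motifs were searched as exact letters on both strands. The week of surgery of each rat was not used here.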

Additional observations from a re-analysis of the deposited data

Results flagged for a closer look

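Of 24 groups of member values (6 genes in 4 groups), 4 held a sample far from the others by Dixon's test. For normally distributed values chance flags about 1 in 20 groups. Contralateral PBBI rat 81 had 7.78 CPM of Msr1 (477 counts), with the next rat at 3.09 CPM. PFC is in the titles of both libraries of rat 81 and of the contralateral library of sham rat 82. The other libraries have CC or CI. The contralateral library of sham rat 82 had 0.633 CPM of Msr1. The part of these titles in the value of rat 81 was not tested. The other values are of Siglech and rest on few counts: 0.0186 CPM in contralateral sham rat 82 (1 count), 0.0380 CPM in ipsilateral sham rat 84 (2 counts), and 0.0692 CPM in contralateral PBBI rat 85 (4 counts). In each of these Siglech groups 4 rats had 0 counts. In the sham groups of 5 rats, the only rat above 0 is then flagged whatever its count. The rate of 1 in 20 does not apply to such groups, and nothing is read from the number flagged.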

How the results depend on the processing

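Of the 15907 genes tested contralaterally with edgeR, 0 were called and 366 had an unadjusted p under 0.05. DESeq2 without a prior called 3 genes and voom with sample quality weights called 1, none of them a member, and leaving out 1 rat gave 0 to 1 (1 without PBBI rat 96). At an unadjusted p under 0.05 there were 2119 genes with weighted voom, 636 without a filter, and 274 to 1043 leaving out 1 rat (1043 without sham rat 91, 824 without PBBI rat 85). The causes were not tested. Over these settings the lowest adjusted p of a member was 0.364 (Msr1) and the highest 1.00. All members in the fits kept their direction between PBBI and sham in both hemispheres. DESeq2's prior, which shrinks fold changes by construction, gave contralateral log2 fold changes of 0.52 for Msr1 and 0.54 for Lgals3, and ipsilateral ones of 4.13 and 3.60. Weighted voom gave 1.10 and 1.01 contralaterally. Over the 19 alternatives the contralateral unadjusted p was under 0.05 in 19 for Msr1, 17 for Lgals3 (not with either voom fit) and 9 for Apobec1. With the rat as a replicate block, the paired PBBI differences between hemispheres were 3.58 for Msr1, 1.86 for Fcgr1a, 3.17 for Lgals3, -1.67 for Siglec5 and 1.81 for Apobec1, which moved none beyond the spread between rats. Without a filter, Siglech had log2 fold changes of 4.13 ipsilaterally and 1.49 contralaterally, which depend on the prior count. Siglech was the member left out of the fits by the filter on low counts.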
